A study of Mus musculus with 8 samples.

Results

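The 9 genes Aqp4, Slc1a2, Slc1a3, Glul, Gja1, Gjb6, Kcnj10, Atp1b2 and Aldh1l1 carry out transport, coupling and metabolic functions of astrocytes, and their transcripts were followed in irradiated neural stem cells. They were taken as the probe sets (groups of short probes that read 1 transcript) annotated with a member's symbol alone, 28 probe sets of 9 genes out of 18194 genes on the array. NSCs derived from mouse ES cells were exposed to 10 Gy of X-rays (irr) and harvested at day 7, and non-irradiated (non-irr) NSCs served as controls, with 4 arrays per group. No day of harvest is given for the non-irr NSCs, and the methods state that cells were not passaged after irradiation. Irradiation and time in culture without passage therefore cannot be told apart. Both groups were grown in the same medium with N2 supplement and EGF and FGF2 at 20 ng/ml each, and RNA was total RNA of whole cultures. The cells carried no engineered allele that the labels name, and the methods name E14Tg2a ES cells as the usual parental line without stating the line for the arrays. The cells were an NSC population expanded in culture, and the methods state that irradiation was done in quadruplicate with an RNA extraction for each of the 4 samples of a group. The series' design text calls the 4 samples of each group biological replicates, without saying how the cultures were separated, so p-values measure the spread between these samples. In RNA of whole cultures, fewer expressing cells and less RNA per cell cannot be told apart.

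Astrocytes clear potassium, glutamate and water that build up around active neurons. AQP4 is the water channel of astrocyte end-feet. The carriers encoded by Slc1a2 (GLT-1) and Slc1a3 (GLAST) take up glutamate, which glutamine synthetase, the product of Glul, converts to glutamine. The inward rectifier KIR4.1, encoded by Kcnj10, and the sodium pump, whose β2 subunit is encoded by Atp1b2, handle potassium. The connexins encoded by Gja1 and Gjb6 form the gap junctions that couple neighboring astrocytes, and Aldh1l1 encodes a folate enzyme that is widely used as an astrocyte marker. Slc1a3, Glul and Gja1 are also known from radial glia, and from NSCs kept in culture.

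The promoters of the 2 glutamate carriers and of Kcnj10 are shown because the carriers' transcripts rose by different amounts and that of Kcnj10 fell. RefSeq windows on GRCm38.p6 were at hand for 7 of the 9 genes, and the 250 bases before the listed start are printed 5′ to 3′ on the gene's strand. The Slc1a2 window (chr2:102706188-102706437, plus strand) lies inside the annotated span of the gene, before an internal start. The Slc1a3 window is chr15:8710808-8711057 (minus strand) and the Kcnj10 window is chr1:172340960-172341209 (plus strand). Capitals mark a match to TTCNNNGAA, the letters of a STAT-type site.
Slc1a2: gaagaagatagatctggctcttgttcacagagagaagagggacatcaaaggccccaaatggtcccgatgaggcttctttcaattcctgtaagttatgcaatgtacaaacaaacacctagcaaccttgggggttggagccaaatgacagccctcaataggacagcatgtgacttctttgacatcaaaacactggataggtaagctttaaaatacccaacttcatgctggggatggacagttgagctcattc
Slc1a3: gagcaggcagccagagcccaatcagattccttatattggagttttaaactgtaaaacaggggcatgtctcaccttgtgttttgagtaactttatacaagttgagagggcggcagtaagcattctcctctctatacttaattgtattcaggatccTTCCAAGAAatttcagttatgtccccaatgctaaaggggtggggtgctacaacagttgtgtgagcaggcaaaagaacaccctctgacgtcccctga
Kcnj10: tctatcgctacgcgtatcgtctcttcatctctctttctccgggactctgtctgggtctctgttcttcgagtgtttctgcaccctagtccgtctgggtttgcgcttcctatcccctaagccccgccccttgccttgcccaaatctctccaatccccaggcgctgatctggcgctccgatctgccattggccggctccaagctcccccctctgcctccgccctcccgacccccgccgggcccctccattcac
These letters, searched on both strands, occurred in 7.02% of 32851 windows of this length. Among the 7 windows of the group they were found in that of Slc1a3, 96 bases before the start. An NFI-type palindrome (TGGC, 5 bases of any kind, GCCA) occurred in 0.703% of the windows and in none of the 7. The bases G and C made up 44.8% of the Slc1a2 window, 44.8% of the Slc1a3 window and 62.0% of the Kcnj10 window. A match describes the sequence and no binding was measured.

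Values are log2 RMA values, the deposited intensities after background correction, quantile normalization and summary of each probe set. A probe set was tested when its intensity exceeded 100 (log2 6.64) on at least 1 array, which 21919 probe sets of 11372 genes did. Probe sets at an adjusted p under 0.05 in limma were called higher or lower. The arrays had 19849 to 20059 probe sets over this intensity and medians of 6.22 to 6.24. Over the tested probe sets the arrays correlated at 0.991 to 0.997 within groups and at 0.912 to 0.923 between groups. Gaps between 3′ and 5′ control probe sets were larger in irr NSCs for 3 of 4 control transcripts (exact permutation test, two-sided, adjusted p = 0.038 each over 4). For actin the gap was 0.51 ± 0.07 in irr NSCs and 0.26 ± 0.03 in non-irr NSCs (SD, n = 4 each). In the same order it was 0.85 ± 0.24 and 0.35 ± 0.21 for the transferrin receptor, and 1.06 ± 0.07 and 0.52 ± 0.11 for pyruvate carboxylase. The part of these gaps in the results for single probe sets was not tested.

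The main picture was an increase of 7 genes and a decrease of 1, with large steps for Aqp4, Slc1a2 and Atp1b2 and small ones for Slc1a3, Glul, Gja1 and Aldh1l1. Of the 9 genes, 8 had a probe set past the filter, and Gjb6 stayed below it on all 8 arrays. With its brightest probe set standing for each gene, 7 of 8 were higher in irr NSCs at an adjusted p under 0.05 (limma), where 40.2% of all genes tested were called higher. The 1 gene called lower, Kcnj10, compares with 37.1% of all genes called lower. At least 2-fold increases were found for 3 of the 8 genes (8.9% of all genes tested), and 1 fell at least 2-fold by the fitted value (6.17% of all genes). The median log2 fold change of the 8 genes was 0.79, and that of all 11372 genes was 0.01. The groups of arrays did not overlap for any of the 8 brightest probe sets, and the same held for 73.4% of all genes tested. Calls in either direction were made for 77.3% of all genes tested. A high share of calls is thus common to this comparison, and the sizes of the changes separate the genes more than the calls do.

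**Figure D1:**
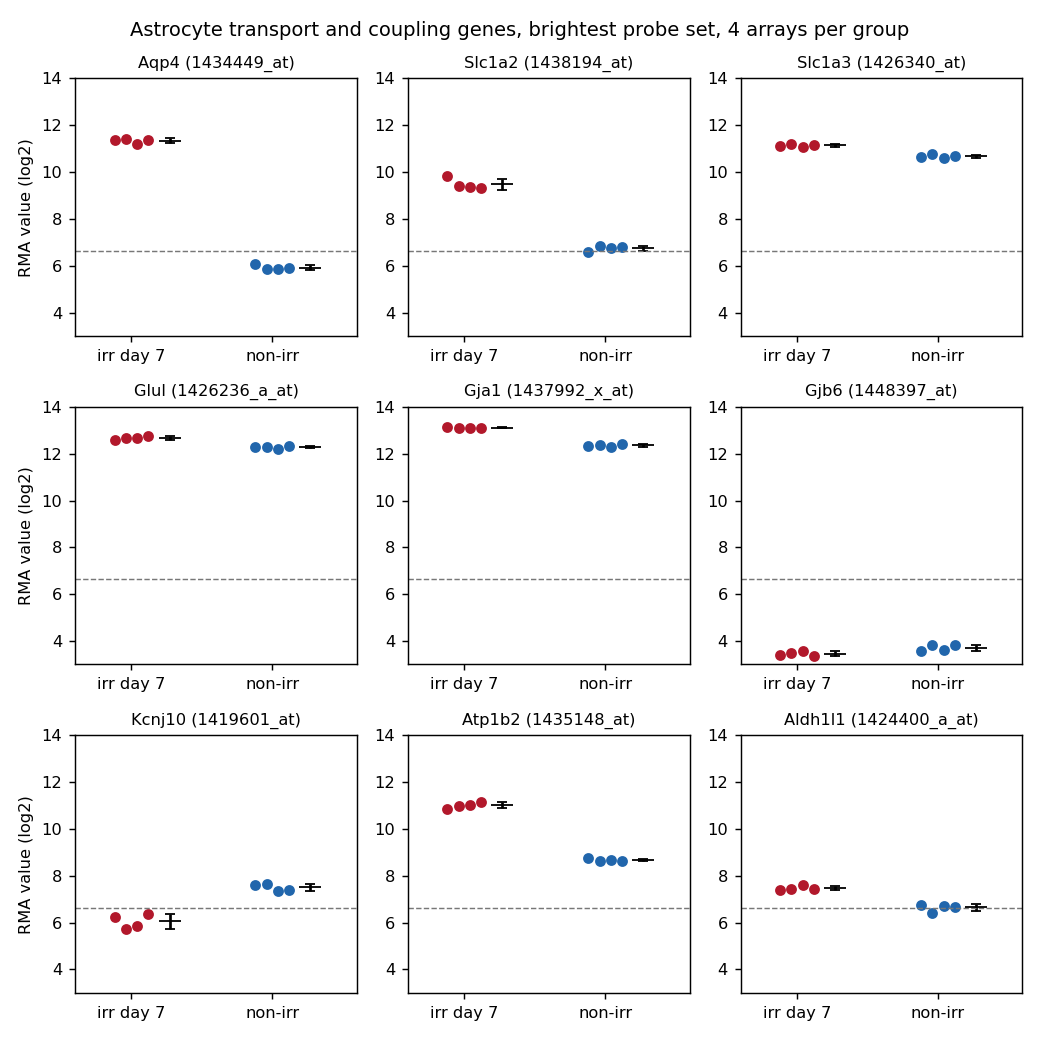
RMA values (log2) of the brightest probe set of each of the 9 genes on 4 irr day 7 arrays (red) and 4 non-irr arrays (blue), with the mean and SD beside each group and the filter at log2 6.64 as a dashed line. Aqp4 stood near 11.35 in irr NSCs and near 5.92 in non-irr NSCs, Kcnj10 lay below the filter in irr NSCs, and Gjb6 lay below it in both groups.

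Aqp4 showed the largest change of the group. Its brightest probe set (1434449_at) had log2 values of 11.39, 11.43, 11.21 and 11.36 in irr NSCs, against 6.09, 5.85, 5.84 and 5.90 in non-irr NSCs. All 4 irr arrays were far above the filter and all 4 non-irr arrays were below it. The log2 fold change was 5.43 ± 0.07 (SE, adjusted p = 1.2e-10, limma), the fifth largest increase of 11372 genes. Since non-irr NSCs had only dim signal, the change is given as at least 26.1-fold, the irr mean over the intensity of the filter. The other probe sets of Aqp4 also rose, by different amounts. The probe set 1425382_a_at had 10.87, 10.49, 10.12 and 10.06 in irr NSCs, against 6.30, 6.28, 6.16 and 5.69 in non-irr NSCs, at least 13.4-fold higher in irr NSCs. The third, 1447745_at, averaged 7.11 ± 0.04 in irr NSCs and 5.77 ± 0.13 in non-irr NSCs (SD, n = 4 each), at least 1.38-fold higher in irr NSCs. All 3 probe sets were higher in irr NSCs, and because each was below the filter in non-irr NSCs the sizes of their changes cannot be set against each other.

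Among the glutamate carriers, Slc1a2 rose strongly and Slc1a3 slightly. The Slc1a2 probe set 1438194_at had 9.84, 9.39, 9.38 and 9.34 in irr NSCs, against 6.58, 6.82, 6.76 and 6.79 in non-irr NSCs. Non-irr NSCs lay at the filter, and 1 irr array stood above the other 3. The log2 fold change was 2.74 ± 0.11 (SE, adjusted p = 1.5e-08, limma), 6.70-fold and rank 66 among the increases of all genes. This change rests on 1 probe set. The other 4 probe sets of Slc1a2 were below the filter on all arrays, and of these 1451627_a_at averaged 6.34 ± 0.14 in irr NSCs and 5.20 ± 0.21 in non-irr NSCs (SD, n = 4 each). The remaining 3 differed by between -0.04 and 0.05, and a further probe set annotated to both Gm13872 and Slc1a2 was left out and was also below the filter.

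Slc1a3 was bright in both groups. Its probe set 1426340_at had 11.11, 11.19, 11.08 and 11.18 in irr NSCs, against 10.64, 10.77, 10.61 and 10.67 in non-irr NSCs. The groups did not overlap, and the log2 fold change was 0.46 ± 0.05 (SE, adjusted p = 1.9e-05, limma), 1.38-fold higher in irr NSCs. The other 4 tested probe sets of Slc1a3 were higher in irr NSCs by 0.31 to 0.75. One of these, 1426341_at, had overlapping groups with 9.57, 9.38, 9.0 and 9.32 in irr NSCs and 9.11, 9.10, 8.73 and 8.98 in non-irr NSCs (adjusted p = 0.03, limma). Without irr replicate 1, 2 or 4, or non-irr replicate 3 or 4, its adjusted p in limma was 0.056 to 0.082. The increase of Slc1a2 exceeded that of Slc1a3 by 2.28 on the log2 scale, a difference that separated the arrays completely and had p = 0.029 in a two-sided exact permutation test (0.057 after adjustment over 4 pairs of genes).

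The probe sets of Glul, which encodes glutamine synthetase, gave changes of opposite sign, small in both and not opposite when arrays were centred on reference genes. Glul 1426236_a_at had 12.59, 12.65, 12.69 and 12.76 in irr NSCs, against 12.31, 12.31, 12.21 and 12.33 in non-irr NSCs, a log2 fold change of 0.38 ± 0.05 (SE, adjusted p = 7.4e-05, limma). The dimmer Glul 1426235_a_at had 10.07, 10.03, 10.21 and 10.21 in irr NSCs, against 10.33, 10.26, 10.34 and 10.23 in non-irr NSCs, a log2 fold change of -0.16 ± 0.06 (SE, adjusted p = 0.028, limma). Its groups nearly touched, and the call was lost without irr replicate 1 or 2 or non-irr replicate 1 or 3 (adjusted p in limma of 0.066 to 0.079). With arrays centred on reference genes the second value was 0.00, so no direction is given for it. The difference between the changes of both probe sets was -0.54 (two-sided exact permutation test, p = 0.029, or 0.1 after adjustment over 11 pairs). The change of Glul was thus below 1.5-fold by either probe set.

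**Figure D2:**
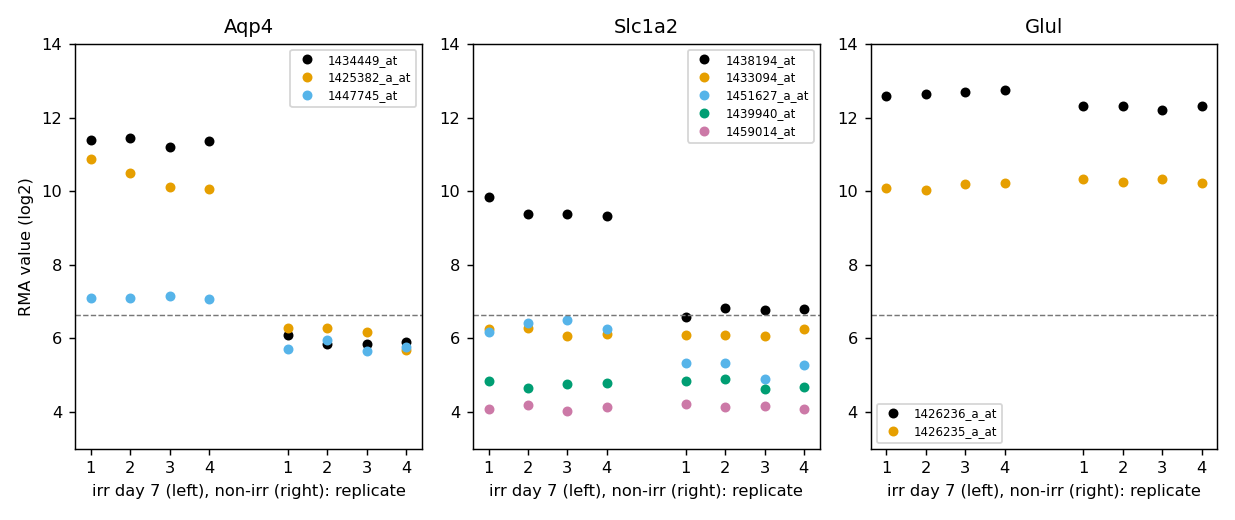
RMA values (log2) of every probe set of Aqp4, Slc1a2 and Glul on each array, irr replicates 1 to 4 on the left and non-irr replicates 1 to 4 on the right of each panel, 1 color per probe set, with the filter as a dashed line. All 3 Aqp4 probe sets were higher in irr NSCs, 1 of 5 Slc1a2 probe sets passed the filter and rose, and the Glul probe sets changed by 0.38 and -0.16, the second being 0.00 with arrays centred on reference genes.

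The genes of potassium handling split. Kcnj10 (1419601_at, its only probe set) had 6.24, 5.74, 5.86 and 6.37 in irr NSCs, against 7.60, 7.66, 7.37 and 7.38 in non-irr NSCs. All irr arrays were below the filter and all non-irr arrays were above it. The fitted log2 fold change was -1.45 ± 0.14 (SE, adjusted p = 7.4e-06, limma). Because the irr signal was below the filter, the change is given as at least 1.81-fold lower in irr NSCs. Kcnj16, which encodes the KIR5.1 subunit that pairs with KIR4.1, was also below the filter on all irr arrays and was at least 1.63-fold lower in irr NSCs (adjusted p = 5.1e-06, limma).

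Atp1b2 changed the other way. Its probe set 1435148_at had 10.86, 10.97, 11.03 and 11.17 in irr NSCs, against 8.76, 8.63, 8.69 and 8.64 in non-irr NSCs. Every irr array was more than 2 log2 units above every non-irr array. The log2 fold change was 2.33 ± 0.07 (SE, adjusted p = 2.1e-09, limma), 5.03-fold and rank 138 among all increases. The second probe set, 1422009_at, was below the filter on all arrays and averaged 6.21 ± 0.08 in irr NSCs and 5.62 ± 0.10 in non-irr NSCs (SD, n = 4 each). Atp1b1, which encodes the β1 subunit, rose by 2.54 ± 0.08 on the log2 scale (SE, adjusted p = 4.3e-09, limma), 3 further probe sets rose by 2.57 to 3.54, and 1455949_at, near the filter, had a log2 fold change of -0.13 (adjusted p = 0.13). By brightest probe set the increases of Atp1b2 and Atp1b1 differed by -0.21 (two-sided exact permutation test, p = 0.11, or 0.11 after adjustment over 4 pairs). The group means of the difference by brightest probe set were -0.39 ± 0.11 in irr NSCs and -0.18 ± 0.17 in non-irr NSCs (SD, n = 4 each).

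Of the connexins, Gja1 rose and Gjb6 was not detected above the filter. Gja1 1437992_x_at had 13.14, 13.10, 13.12 and 13.08 in irr NSCs, against 12.34, 12.37, 12.29 and 12.43 in non-irr NSCs. The irr arrays lay in a narrow band above all non-irr arrays, with a log2 fold change of 0.75 ± 0.04 (SE, adjusted p = 2.3e-07, limma), 1.68-fold higher in irr NSCs. The other 4 tested probe sets of Gja1 were higher by 0.55 to 0.72, and none of their differences from the brightest passed the test (exact permutation tests, two-sided, p = 0.17 to 0.6). Gjb6 1448397_at had 3.42, 3.50, 3.57 and 3.37 in irr NSCs, against 3.59, 3.82, 3.64 and 3.82 in non-irr NSCs. These values are far below the filter, so no change of Gjb6 is given, although a fit without the filter gives -0.25 (adjusted p = 0.018, limma).

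Aldh1l1 1424400_a_at had 7.39, 7.45, 7.62 and 7.44 in irr NSCs, against 6.76, 6.43, 6.73 and 6.69 in non-irr NSCs. It lay close to the filter in non-irr NSCs and above it on every irr array, with a log2 fold change of 0.83 ± 0.08 (SE, adjusted p = 8e-06, limma), 1.77-fold. The second probe set, 1424401_at, was near log2 4.1 in both groups. Aldh1l2, its mitochondrial counterpart, had a log2 fold change of 0.05 ± 0.05 (SE, adjusted p = 0.3, limma). The increase of Aldh1l1 exceeded that of Aldh1l2 by 0.77 (two-sided exact permutation test, p = 0.029, or 0.057 after adjustment over 4 pairs).

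**Figure D3:**
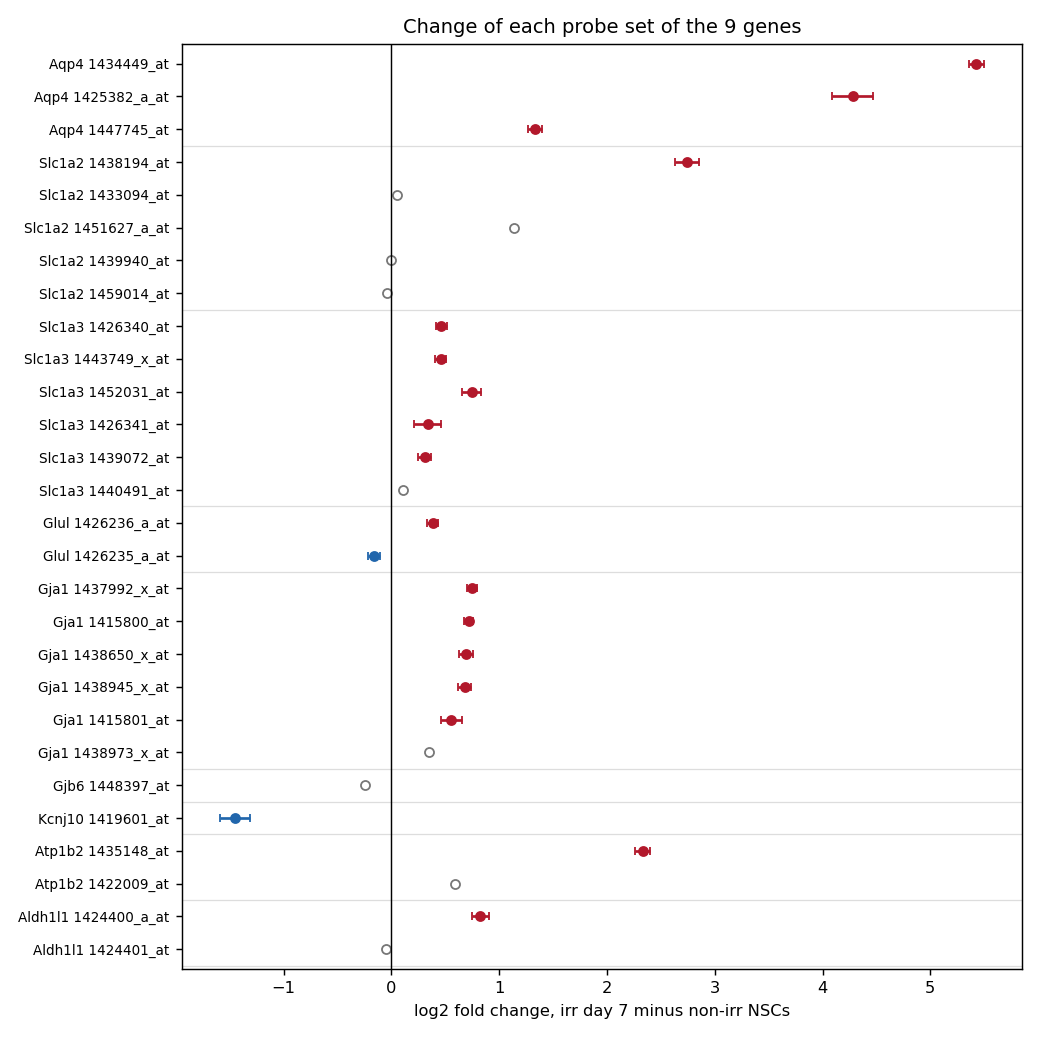
Log2 fold change (irr day 7 minus non-irr) of all 28 probe sets, with the SE of the limma fit for the 19 past the filter (red higher, blue lower) and open circles for the 9 below it. The probe sets of Gja1 and of Slc1a3 lie close together, whereas those of Aqp4 spread between 1.33 and 5.43.

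By probe set, 17 of the 19 past the filter were higher in irr NSCs and 2 were lower (Kcnj10, and Glul 1426235_a_at, which was at 0.00 with arrays centred on reference genes), where 75.1% of all tested probe sets were called, 38.0% higher and 37.1% lower. Their median log2 fold change was 0.70. At least 2-fold increases were found for 5 of these probe sets (8.47% of all), namely the 3 of Aqp4 and 1 each of Slc1a2 and Atp1b2, although for Aqp4 1447745_at this is the fitted value and the bound is 1.38-fold. The probe set of Kcnj10 fell at least 2-fold by the fitted value as well (5.98% of all). Without the filter, 3 of the 9 dim probe sets were called higher, 1 was called lower and 5 were not called.

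Other genes of the same functions were counted from lists that leave the 9 genes out. Each count is to be read beside the shares of all genes tested, 40.2% called higher and 37.1% called lower. The counts of the glutamate list and of the potassium and sodium list were near these shares. The water list held 12 measured genes, of water channels, of the dystrophin complex that anchors AQP4, and Mlc1, Hepacam and Lrrc8a, which belong to neither. Of the 12 genes 9 were higher, 1 was lower and 2 were not called, with a median log2 fold change of 0.74. Mlc1, Hepacam and Lrrc8a (named after their values were seen) were all among the higher ones. The dystrophin complex links AQP4 to the basal lamina, and α-dystrobrevin (Dtna, 1.55 ± 0.13), β2-syntrophin (Sntb2, 1.34 ± 0.24) and dystrophin (Dmd, 1.27 ± 0.10) rose on the log2 scale (SE, adjusted p at most 0.00053, limma). These are values of the brightest probe sets, and the other tested probe sets of Dtna rose by fitted values of 0.54 to 1.52. β1-syntrophin (Sntb1), below the filter in non-irr NSCs, was at least 1.10-fold higher in irr NSCs. Neither of the other measured aquaporins, Aqp5 and Aqp11 (named after their values were seen), was called, though after centring on reference genes both were called higher.

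In the glutamate list of 15 measured genes, 5 were higher, 6 were lower and 4 were not called, with a median log2 fold change of -0.01. Grm3, a metabotropic glutamate receptor, was at least 2.12-fold higher in irr NSCs. Slc25a18, a mitochondrial glutamate carrier, rose by 0.81 ± 0.05. Glud1, glutamate dehydrogenase, rose by 0.76 ± 0.05 by its brightest probe set and by 0.43 by its other one. Gpt2, a mitochondrial alanine aminotransferase, fell by 0.99 ± 0.06 (SE, log2 scale, adjusted p at most 4.3e-07 for the brightest probe sets of these 3 genes, limma). After centring on reference genes the glutamate list counted 7 higher and 4 lower, which turns its balance.

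Of 14 measured genes of potassium and sodium transport, 5 were higher, 6 were lower and 3 were not called, with a median log2 fold change of -0.13. Next to Atp1b1, the sodium bicarbonate cotransporter Slc4a4 rose by 2.21 ± 0.06 on the log2 scale (SE, adjusted p = 1.7e-09, limma). The sodium, potassium and chloride cotransporter Slc12a2 fell by 1.21 ± 0.07 by its brightest probe set and by 2.19 and 2.33 by its other 2, and the sodium pump regulator Fxyd6 by 1.09 ± 0.06 (SE, adjusted p at most 2e-07 for the brightest probe sets, limma).

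Only 3 other genes of gap junctions passed the filter, and none of them rose. The connexin gene Gjc1 had a log2 fold change of -2.35 ± 0.06, and the pannexin gene Panx1 one of -0.78 ± 0.04 (SE, adjusted p at most 1.5e-07, limma), while the scaffold gene Tjp1, named after its values were seen, was not called (after centring on reference genes it was called higher). In the folate list of 15 measured genes, 13 were lower, 1 was higher and 1 was not called, with a median log2 fold change of -0.95. Large decreases were those of Mthfd1l (-1.59 ± 0.06), Mthfd2 (-1.44 ± 0.08) and Shmt1 (-1.19 ± 0.05) on the log2 scale (SE, adjusted p at most 1.4e-07, limma). The other probe set of Mthfd2 fell by 1.04, and those of Shmt1 fell by 0.57 to 1.34. Thymidylate synthase (Tyms) was called lower, but no size is given because all irr arrays and 2 of 4 non-irr arrays were below the filter. Aldh1l1 therefore rose while most other genes of folate metabolism fell.

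**Figure D4:**
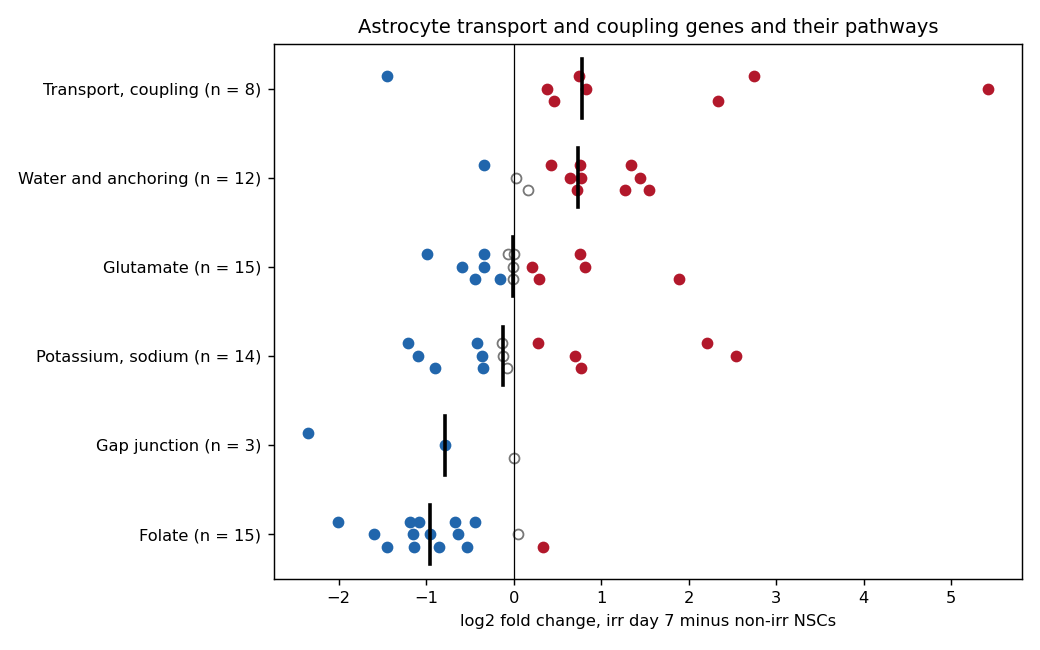
Log2 fold change (irr day 7 minus non-irr) of the 8 measured genes and of the other measured genes of each list, by brightest probe set, red if higher, blue if lower and open if not called in limma, with the median as a black bar. The medians were 0.79 for the 8 genes, 0.74 for water and anchoring, -0.01 for glutamate, -0.13 for potassium and sodium, -0.78 for gap junctions and -0.95 for folate.

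Markers of cell types were read beside these changes. For these lists too, 40.2% of all genes tested were called higher and 37.1% lower, and the counts of the astrocyte list were near these shares. Of 21 measured further astrocyte genes, 9 were higher, 8 were lower and 4 were not called (median log2 fold change 0.00). The called ones with the largest change were Apoe (4.64 ± 0.08) and Agt (3.61 ± 0.09) on the log2 scale (SE, adjusted p at most 8.6e-10, limma). Among the 8 lower ones the largest decreases, named after their values were seen, were those of Fgfr3 (-1.39 ± 0.07) and Slc15a2 (-1.29 ± 0.05) (SE, adjusted p at most 7.5e-08, limma). Gfap, the astrocyte intermediate filament, is given after its values were seen. Its brightest probe set was near the filter, with 6.61 ± 0.04 in irr NSCs and 6.80 ± 0.11 in non-irr NSCs (SD, n = 4 each). This probe set was called lower (adjusted p = 0.019, limma), although the groups overlapped. The other 2 probe sets of Gfap were below the filter and averaged 5.71 ± 0.21 and 4.03 ± 0.17 in irr NSCs, against 4.83 ± 0.32 and 3.45 ± 0.24 in non-irr NSCs. Of 11 measured neural stem cell genes, 3 were higher, 3 were lower and 5 were not called. Nes, Sox2 and Fabp7 were above the filter on all 8 arrays, whereas Sox1 and Nr2e1 of the same list were below it on all 8 (these 5 genes were named after their values were seen). Sox2 (0.23 ± 0.05) and Fabp7 (0.18 ± 0.05) were called higher in irr NSCs on the log2 scale (SE, adjusted p at most 0.011, limma). Nes (0.07 ± 0.05) was not called. The called genes of this list with the largest change were Hes5 (-0.63 ± 0.08) and Pax6 (-0.54 ± 0.05), both lower in irr NSCs on the log2 scale (SE, adjusted p at most 3.8e-05, limma).

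Of the lists for other cells that could express the 9 genes, the ependymal, microglial, endothelial and oligodendrocyte ones were mostly below the filter. Most of the neuronal and mesenchymal genes passed it. Of 12 ependymal and choroid plexus genes 2 were measured, and 1 (Foxj1) was higher in irr NSCs, with summed levels of 7.65 to 7.86 in irr NSCs and 7.53 to 7.72 in non-irr NSCs on the log2 scale. Of 12 microglial genes 3 were measured and 2 were higher, Cd68 and P2ry12, while Aif1, Cx3cr1, Itgam, Tmem119, Ptprc and Tyrobp were below the filter on all arrays. Summed levels of this list were 9.16 to 9.38 in irr NSCs and 8.30 to 8.38 in non-irr NSCs. Of 6 measured mesenchymal genes 4 were higher and 1 was lower, with Lum at least 2.98-fold higher and a log2 fold change of -1.75 ± 0.06 for Acta2 (SE, summed 11.82 to 11.88 in irr NSCs and 11.14 to 11.22 in non-irr NSCs), and both measured endothelial genes, Kdr (-0.40 ± 0.10) and Flt1 (-0.20 ± 0.04), were lower (adjusted p at most 0.004, limma), Flt1 not being called after centring on reference genes. Of 9 measured neuronal genes 3 were higher and 5 were lower. Elavl4 was at least 2.61-fold lower and Nefl had a log2 fold change of -1.72 ± 0.06. Those called higher, named after their values were seen, were Gap43 (1.52 ± 0.06 on the log2 scale, SE), Syt1 (at least 1.61-fold) and Syp. Summed levels of the neuronal list were 13.29 to 13.37 in irr NSCs and 13.10 to 13.26 in non-irr NSCs. Of 3 measured oligodendrocyte genes none was called, and the part of these lists in the changes of the 9 genes was not tested.

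Genes whose values over the 8 arrays were most like those of a member were found by the root mean square difference after each probe set was centred on its own mean, among 11371 other genes. For Aqp4 these were Abca1 (0.16), Abca8a (0.17) and Cd36 (0.21), and for Slc1a2 they were Tnr, Car3 and Col6a2. For Atp1b2 they were Smim3, Pik3ip1 and Pf4. For Kcnj10 they were Rad51c (0.15), Chtf18 (0.15) and Fanca (0.17), which are genes of DNA repair and chromosome cohesion. Slc1a3 was nearest to Mcl1, Acbd3 and Ranbp9, Glul to Tmem184b, Hrh1 and Tcf7l2, Gja1 to Rbm20, Pcdhb10 and Lrpap1, and Aldh1l1 to Gadd45g, Rasgrp2 and Siae. With 2 groups this likeness mostly reflects the size of the change between them.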

How the data were processed

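RNA of NSCs was hybridized to Affymetrix Mouse Genome arrays, 4 of irr NSCs at day 7 and 4 of non-irr NSCs. The log2 values were deposited by the authors, who read the arrays with GCOS and normalized them with RMA (versions not given in the sources used here). The table holds 45101 probe sets, 64 of them controls, with values from 2.48 to 14.98. Detection calls, which the methods also used as a filter, were not used here. Of all probe sets, 34958 carry 1 gene symbol, 932 several and 9211 none in the platform annotation, and symbols were updated through Entrez numbers for 34754.

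Probe sets over an intensity of 100 on at least 1 array (21919) were tested with limma 3.58.1 in R 4.3.3, two-sided, with Benjamini-Hochberg adjustment over all of them and a threshold of 0.05. A fold called at least a number is the brighter group's mean over the filter. Exact permutation tests compared 4 against 4 arrays (smallest p 0.029). The genes named are the 9 genes with all probe sets, the 4 called genes of each pathway list and the 2 of each cell type list with the largest change, and the 3 nearest genes of each member; genes named after their values were seen, and near partners of a member, are the exceptions. The members, lists and tests were chosen with earlier results of these data known, and leaving out pairs of irr arrays was added after seeing the data. Promoter windows come from RefSeq on GRCm38.p6. On simulated data with 21919 probe sets, the procedure called all 50 of the 0.25-fold, all 50 of the 0.5-fold, 48 of the 50 2-fold and all 50 of the 4-fold changes, with 6 of 21719 others. The simulated noise was normal and independent between probe sets and few of them were changed, whereas 75.1% of the real ones were called. The simulation therefore does not give the error rate in these data. Alternatives covered filter, scaling, variance model, replicate block, threshold, probe set choice and left-out arrays. Array number limits precision.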

Additional observations from a re-analysis of the deposited data

Results flagged for a closer look

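Among 126 groups of 4 values tested, 6 held 1 array whose gap to the nearest other array was an unusually large part of the group's range, about what chance gives at 1 in 20 groups. Slc1a2 1438194_at had 9.84 in irr replicate 1, above the other irr arrays at 9.34 to 9.39. Slc1a2 1433094_at had 6.26 in non-irr replicate 4, above the others at 6.07 to 6.10, and Slc1a2 1451627_a_at had 4.88 in non-irr replicate 3, below the others at 5.29 to 5.32. Gja1 1438973_x_at had 6.37 in irr replicate 3, above the others at 6.14 to 6.16. Agt had 11.02 in irr replicate 4, above the others at 10.83 to 10.86. The difference of Atp1b2 minus Atp1b1 was -0.44 in non-irr replicate 4, below the other non-irr arrays at -0.12 to -0.06. Of these, Slc1a2 1433094_at and 1451627_a_at and Gja1 1438973_x_at lie below the filter. Without any 1 array the log2 fold change of Slc1a2 stayed between 2.63 and 2.79.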

How the results depend on the processing

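The 8 called genes kept direction under all alternatives that gave them a value, and 6 of them kept the call, the exceptions being Slc1a3 (0.46) and Glul (0.38), whose adjusted p was 1 in limma's test against a 1.5-fold change. In that test water genes counted 5 higher and 0 lower, glutamate genes 3 higher and 1 lower, potassium and sodium genes 2 higher and 3 lower, and folate genes 0 higher, with 2705 probe sets higher and 2078 lower of all, in place of 8339 and 8128. Without the intensity filter 2 members were lower, Gjb6 being the second, and 6 gap junction genes were lower. With arrays centred on 7 reference genes, of which 1 was higher and 3 lower themselves, the median of all probe sets moved by 0.16, the share of higher calls was 66.0% in place of 50.6% (72.9% in place of 58.6% at 2-fold or more), the members' median was 0.95, 11 water genes were higher and 1 lower, 7 glutamate genes higher and 4 lower, 1 gap junction gene and 2 folate genes higher, and Glul 1426235_a_at was at 0.0016. With plain identifiers only (no letter before the final _at), Glul and Aldh1l1 dropped out and the members' median over 6 genes was 1.52. Dtnb, the 1 lower water gene, dropped out as well, which left 0 lower. Atp1b1 was then read by 1455949_at, at -0.13. Without 1 array at a time, the difference of Slc1a3 1443749_x_at minus 1426340_at lay between -0.044 and 0.029 and that of Gja1 1438650_x_at minus 1437992_x_at between -0.083 and 0.017. Without irr replicates 1 and 2, the log2 fold changes of Glul 1426235_a_at and Slc1a3 1426341_at were -0.08 and 0.18 (adjusted p = 0.24 each, limma). Centring on reference genes moves every log2 fold change by the same amount, and plain identifiers change which probe sets are read. The causes of the shifts with left-out arrays were not tested. Whether replicate numbers pair the arrays cannot be decided from 4 correlations. Deviations of same-numbered arrays correlated at 0.04, 0.38, -0.21 and 0.51, and 2 of 4 irr arrays correlated best with their own number. The replicate block changed no call of a member and gave 8377 probe sets higher and 8173 lower.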
